A study of Homo sapiens with 3 samples.

Results

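The genes described here are HMOX1 and 9 other genes of oxidative stress defence and iron storage, NQO1, GCLM, GCLC, TXNRD1, SRXN1, SLC7A11, OSGIN1, FTL and FTH1. The selection took every probe set whose only annotated symbol was 1 of these 10 names, which gave 28 of the 49388 probe sets and covered 9 of the 10 genes. No such probe set named FTH1, so its level was not analysed here. The set was chosen by the HMOX1 value with siRNA 2, which read higher than the control, so that value is a description. The other genes were chosen as known targets of the same regulator, and the question was whether they shared that difference.

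Expression was measured in LNCaP, an established prostate cancer line that depends on the androgen receptor, on 3 Affymetrix arrays. Cells kept in serum-containing medium without phenol red received 75 nM of a control siRNA or an siRNA, 1 or 2, directed at HOXD-AS1, a long non-coding RNA, and RNA was extracted 48 h later. Each group held 1 array, so no value has a replicate spread, no test between groups was possible and precision is limited by that number. The source labels named the control cells LNCaP, the siRNA 1 cells LNCaP-Bic and the siRNA 2 cells LNCaP-AI, although another label calls all of them LNCaP; a difference between siRNAs and a difference between cells of these names cannot be told apart.

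The siRNA sequences follow as the labels give them, in lower case and 5′ to 3′, because the main result separates the arrays of the siRNAs that were meant to lower the same transcript. The labels do not say which strand is shown.
control siRNA: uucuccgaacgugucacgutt
HOXD-AS1 siRNA 1: gaaagaaggaccaaaguaauu
HOXD-AS1 siRNA 2: gcccuuucugaccugcuuauu
The labels give an inhibition rate of 0.23 for siRNA 1 and 0.25 for siRNA 2, relative to 1 for the control, without saying whether it is the level left or lost. Another label places the siRNA target points, 588 and 1290, on the coding sequence of WDR5, a histone methyltransferase subunit, whereas the titles name HOXD-AS1, so what the siRNAs and these rates refer to is unclear. WDR5 mRNA differed from the control by -0.34 and -0.13 on the log2 scale, and by -0.14 and -0.17 on its other probe set. HAGLR, as HOXD-AS1 is now named, had 0 probe sets in the annotation, and the targeted transcript was not analysed here.

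NRF2, encoded by NFE2L2, is a transcription factor that the adaptor KEAP1 and the ubiquitin ligase CUL3 keep at a low level until oxidants or electrophiles modify KEAP1. It then pairs with small MAF proteins on antioxidant response elements (AREs) and raises genes for glutathione synthesis, thioredoxin reduction, quinone detoxification and heme and iron handling. HMOX1, which encodes heme oxygenase 1, breaks heme into biliverdin, carbon monoxide and iron; it answers to NRF2 but also to heat shock factor, AP-1, hypoxia and loss of the heme-sensing repressor BACH1.

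Promoters are shown for 2 genes whose sequence just before the transcription start held the ARE core, GCLM and TXNRD1, and for NQO1, the gene that differed most after HMOX1. RefSeq promoter entries (GRCh38.p14) matched 7 of the 10 genes, all but HMOX1, SLC7A11 and FTH1. The ARE core was searched as TGACNNNGC on both strands of the 250 bases before the start, and its match is in capitals. TXNRD1 has 2 annotated starts, and both are printed.
GCLM, minus strand, chr1:93909431-93909680: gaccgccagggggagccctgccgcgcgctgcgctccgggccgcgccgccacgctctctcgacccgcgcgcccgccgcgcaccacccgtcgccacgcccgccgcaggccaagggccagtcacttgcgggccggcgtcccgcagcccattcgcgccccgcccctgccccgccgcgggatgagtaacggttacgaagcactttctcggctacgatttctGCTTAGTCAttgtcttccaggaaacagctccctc
TXNRD1 first start, plus strand, chr12:104215529-104215778: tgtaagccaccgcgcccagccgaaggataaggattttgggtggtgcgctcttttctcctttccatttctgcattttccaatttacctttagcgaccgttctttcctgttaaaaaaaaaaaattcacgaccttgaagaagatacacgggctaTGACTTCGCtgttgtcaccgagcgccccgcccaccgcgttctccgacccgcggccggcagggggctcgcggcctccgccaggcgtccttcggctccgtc
TXNRD1 second start, plus strand, chr12:104286782-104287031: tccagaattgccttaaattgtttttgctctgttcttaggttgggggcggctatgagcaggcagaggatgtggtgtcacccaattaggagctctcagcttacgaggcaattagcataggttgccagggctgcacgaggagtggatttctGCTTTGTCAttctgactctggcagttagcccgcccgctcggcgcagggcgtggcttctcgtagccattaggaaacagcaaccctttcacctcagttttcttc
NQO1, minus strand, chr16:69726561-69726810: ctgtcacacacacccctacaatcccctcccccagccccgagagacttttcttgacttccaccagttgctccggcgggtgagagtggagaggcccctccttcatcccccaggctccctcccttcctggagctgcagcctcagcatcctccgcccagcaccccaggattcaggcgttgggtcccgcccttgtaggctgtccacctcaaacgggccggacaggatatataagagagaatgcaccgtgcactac
The core stood at bases -34 to -26 of GCLM, -99 to -91 of the first TXNRD1 start and -102 to -94 of the second, counted from the start. It was present in 3 of the 8 promoter entries of these genes and in 10.9% of all 35116 promoters. The AP-1 site TGACTCA was found in OSGIN1 only, against 4.20% of all promoters, while CACGTG and TGATGNAA had no match in any of the 8 entries, against 6.34% and 3.14%. A match describes letters in this window and is not a measured site. No match, as for NQO1, leaves the sequence outside the window unsearched.

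HMOX1 read about 5 times higher with siRNA 2 than on either other array, and all 3 of its probe sets showed this. On probe set 11716939_a_at the control array had an intensity of 236, the siRNA 1 array 234 and the siRNA 2 array 1182. Given in the same order, 11753445_a_at read 50.2, 47.2 and 236, and 11753446_x_at read 60.4, 51.4 and 257. Triplets of intensities keep this order throughout. The control and siRNA 1 arrays were close on every probe set, and the siRNA 2 array stood above both. These intensities give 5.00-fold, 4.70-fold and 4.26-fold higher values with siRNA 2 than with the control, and log2 differences of -0.01, -0.09 and -0.23 with siRNA 1. The last 2 of these probe sets were designed on the same sequence record, so they are not separate readings of the transcript. As a description of the value that chose the gene, HMOX1 ranked 7th from the top among 11296 measured genes in siRNA 2 minus control, and 2nd in siRNA 2 minus siRNA 1; each gene was represented by its brightest probe set. In RNA from whole cultures, more transcript per cell and more cells with the gene active cannot be told apart.

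A floor and a spread help to read the other values. The median of all intensities, 26.0, served as the floor, and a probe set above it on any array was taken as measured, which held for 25 of the 28. Over the 6263 genes with several measured probe sets, the log2 difference from the control varied between probe sets of 1 gene with a pooled SD of 0.22 for siRNA 1 and 0.20 for siRNA 2. This spread covers disagreement between probe sets on the same arrays and not variation between cultures.

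The HMOX1 difference was not shared by the other 8 measured genes of the set. Of their 22 measured probe sets, 0 were 1.5-fold or more higher than the control with siRNA 2, where 3.98% of all 23896 measured probe sets with 1 symbol were. With siRNA 1 the count was also 0, against 6.57% of all probe sets. A 1.5-fold or larger lower value was seen in 2 of the 22 with siRNA 1 and in 2 with siRNA 2, where the shares over all probe sets were 5.65% and 5.22%. At 2-fold all of these counts were 0, against 0.695% higher and 0.644% lower over all probe sets with siRNA 2 and 1.18% and 1.5% with siRNA 1. With 22 probe sets, several of them of 1 gene, counts of 0 to 2 do not stand apart from these shares. Including HMOX1, 3 of 25 were 2-fold or more higher with siRNA 2, and those 3 were the HMOX1 probe sets.

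**Figure D1:**
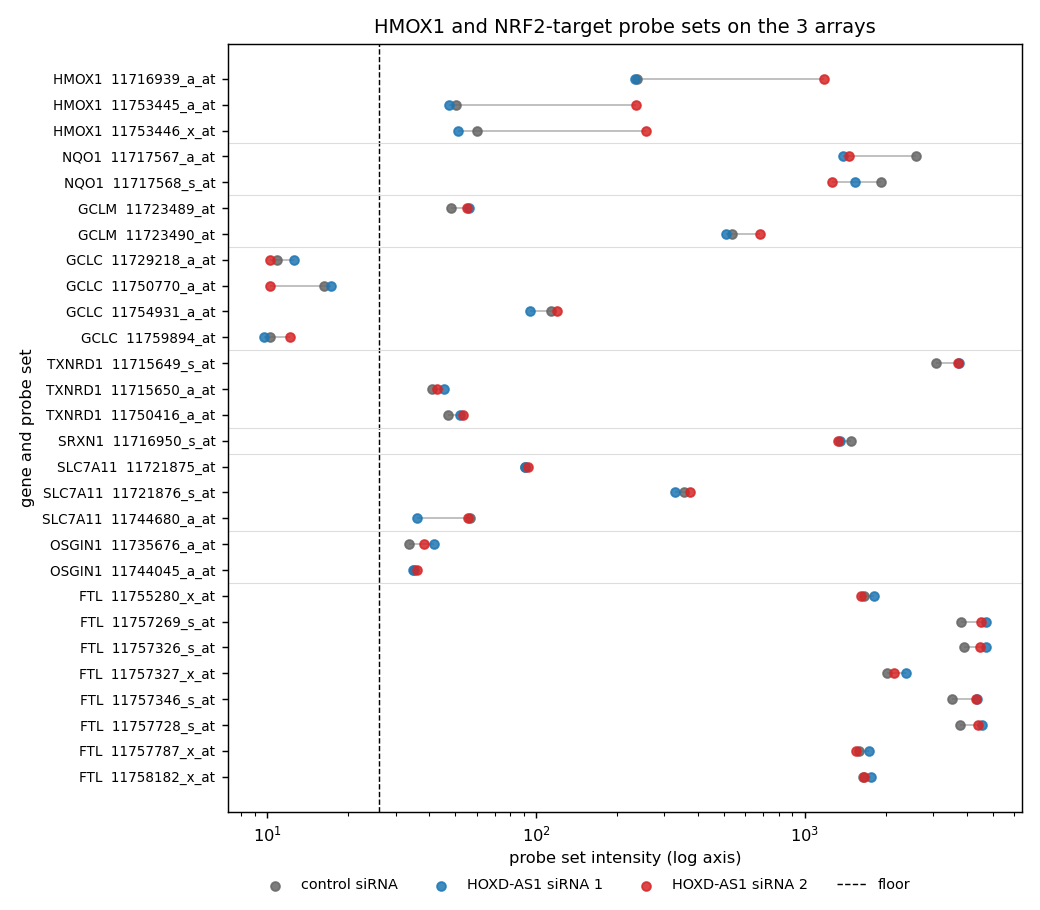
Intensity of each of the 28 probe sets (horizontal log axis) on the control (grey), siRNA 1 (blue) and siRNA 2 (red) arrays, with the floor of 26.0 as a dashed line; each point is 1 array. The red points of the 3 HMOX1 probe sets lie far to the right of the others (1182 against 236 and 234 in the first), while the grey points of NQO1 lie to the right of both siRNA arrays.

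NQO1 went the opposite way and did so with both siRNAs. It encodes a quinone reductase and is among the most used readouts of NRF2 activity. Its brighter probe set read 2593, 1392 and 1458, and its other one read 1927, 1537 and 1259.8. The control was the highest array on both probe sets, with siRNA 2 above siRNA 1 on the brighter one and below it on the other. The brighter one was below the control by 1.86-fold for siRNA 1 and by 1.78-fold for siRNA 2. On the other the values were 1.25-fold and 1.53-fold lower, so the probe sets disagreed on the size for siRNA 1 (log2 differences of -0.90 and -0.33) more than for siRNA 2 (-0.83 and -0.61). By its brighter probe set, NQO1 ranked 263rd from the lowest of 11296 genes with siRNA 1 and 167th with siRNA 2. Both differences share the control array, so they are not separate observations of a lower NQO1 level.

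The genes of glutathione synthesis stayed close to the control. GCLM, the modifier subunit of glutamate-cysteine ligase, read 537, 509 and 679 on its brighter probe set, the siRNA 2 array being the highest by a log2 difference of 0.34 from the control. Its other probe set read 48.0, 56.3 and 55.1, with both siRNA arrays above the control by 0.23 and 0.20, so an excess of siRNA 2 over siRNA 1 was seen on the brighter probe set alone. GCLC, the catalytic subunit, was measured by 1 of its 4 probe sets, which read 113, 95.1 and 119.9, and the other 3 were below the floor on every array. SLC7A11, the cystine transporter subunit that supplies cysteine and is also driven by ATF4, read 357, 329 and 373 on its brightest probe set and 91.2, 90.6 and 92.9 on another. A dimmer probe set of SLC7A11 read 56.7, 36.0 and 55.7, which set siRNA 1 1.57-fold below the control; its brighter probe sets did not show that gap (-0.11 and -0.01). With siRNA 2 all 3 SLC7A11 probe sets were within 0.07 of the control on the log2 scale.

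The thioredoxin branch was also near the control. TXNRD1, which reduces thioredoxin with NADPH, read 3072, 3760.0 and 3708 on its brightest probe set. Its other probe sets read 41.0, 45.5 and 42.8, and 47.0, 52.0 and 53.5. The control was the lowest array on all 3, their log2 differences running from 0.15 to 0.29 for siRNA 1 and from 0.06 to 0.27 for siRNA 2, close to the spread between probe sets. SRXN1, sulfiredoxin, which restores over-oxidised peroxiredoxins, read 1486, 1354 and 1334, or -0.13 and -0.16. GCLM and TXNRD1, whose printed promoters hold the ARE core, differed from the control with siRNA 2 by at most 0.34, where HMOX1 differed by 2.32. HMOX1 had no promoter entry to search, so a link between the core and these differences was not tested.

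OSGIN1, an oxidative stress-induced growth inhibitor, was dim, with 33.7, 41.6 and 38.4 on one probe set and 35.1, 34.9 and 36.2 on the other. These values are close to the floor and their order was not the same on both probe sets. FTL, the light chain of the iron store ferritin, had 8 probe sets, all bright. The 4 whose suffix (_s_at) marks a match to several transcripts read 3526 to 3903 in the control, with log2 differences from 0.27 to 0.31 for siRNA 1 and from 0.21 to 0.30 for siRNA 2. The 4 marked as open to cross-hybridisation (_x_at) differed less, by 0.10 to 0.24 and -0.04 to 0.09. Ferritin genes have many near-identical pseudogenes, so FTL values are uncertain at this size.

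**Figure D2:**
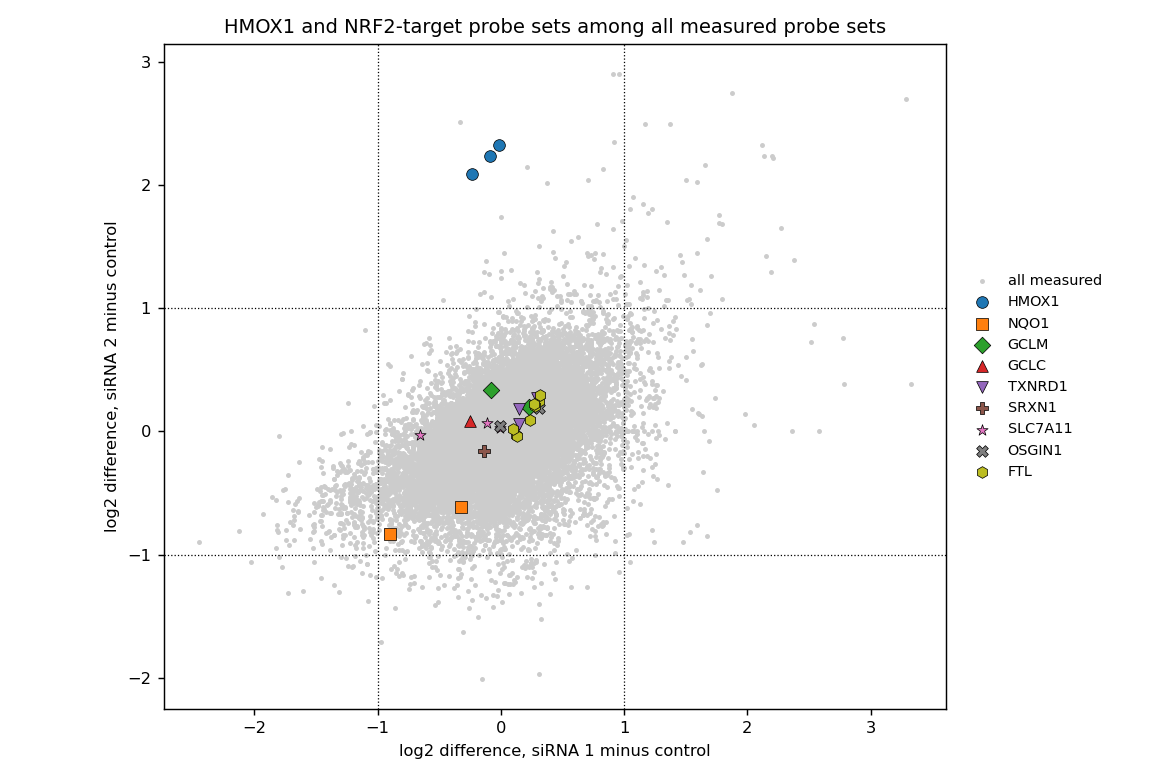
Log2 difference from the control with siRNA 1 (horizontal) and siRNA 2 (vertical) for each of the 23896 measured probe sets (grey) and for the 25 of HMOX1 and the other NRF2 targets (coloured by gene); dotted lines mark 2-fold. HMOX1 sits near 0 on the horizontal axis and between 2.09 and 2.32 on the vertical one, apart from the other genes, which lie in the grey cloud. The control array is part of both axes.

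As a group, the 9 measured genes had a median log2 difference of -0.08 with siRNA 1 and 0.19 with siRNA 2, each gene taken by its brightest probe set, where all 11296 genes had 0.00 and 0.01. Without HMOX1 the medians of the other 8 were -0.10 and 0.14. Between the siRNA arrays, siRNA 2 minus siRNA 1, the other 8 genes had a median of 0.02. The 22 probe sets other than HMOX1, 8 of them of FTL, had a median of -0.03. In that comparison 1 of the 22 was 1.5-fold or more higher, the dimmest SLC7A11 probe set at 0.63, against 4.02% of all probe sets, and 0 were lower, against 7.07%.

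Most transcripts that control NRF2 were within 1.5-fold of the control by their brightest probe set, the exception being PGAM5 with siRNA 2. NFE2L2 itself read 699, 763 and 664, or 0.13 and -0.07 on the log2 scale, with its other probe set at -0.03 and -0.15. KEAP1 read 432, 403 and 454 (-0.10 and 0.07), and the ligase subunits CUL3 (0.23 and 0.02) and RBX1 (-0.21 and -0.16) were likewise within 1.5-fold. SQSTM1, the autophagy receptor that competes for KEAP1 and is itself an NRF2 target, differed by 0.50 and 0.18, while 4 further probe sets ranged from 0.26 to 1.26 for siRNA 1 and from -0.11 to 0.29 for siRNA 2. MAFG, a small MAF partner, differed by -0.23 and -0.55 (-0.55 to -0.15 for siRNA 2 on 3 further probe sets). PGAM5, a mitochondrial phosphatase bound by KEAP1, differed by -0.43 and -0.67. Its 2 further measured probe sets ranged from -0.63 to -0.49 for siRNA 1 and from -0.78 to -0.44 for siRNA 2. NFE2L1, the related factor NRF1, differed by 0.27 and 0.37, the coactivator CREBBP by 0.37 and 0.41 (-0.07 to -0.03 for siRNA 2 on 2 further probe sets), DPP3 by 0.27 and -0.01 and BTRC by -0.38 and 0.18. Of the 11 measured genes of this list, 0 were 1.5-fold or more higher and 1, PGAM5, was lower with siRNA 2, where 4.75% of all genes were higher and 4.67% lower; with siRNA 1 both counts were 0, against 6.93% and 6.15%. BACH1, BACH2 and MAFF were at or below the floor on all arrays, so the HMOX1 repressor BACH1 gave no value here. NRF2 is controlled mainly through its protein, which these arrays do not measure.

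Further known NRF2 targets, 23 measured of 32 listed, went both ways. With siRNA 2, by brightest probe set, 4 were 1.5-fold or more higher and 0 lower, where 4.75% of all genes were higher and 4.67% lower. The list median was -0.02 against 0.01 for all genes. The 4 were AKR1C3 (0.91), ABHD4 (0.74), AKR1C2 (0.69) and GSTA4 (0.66), all but AKR1C3 singled out after their values were seen. With siRNA 1 they differed, in the same order, by 0.85, 0.30, -0.37 and 0.31. AKR1C3 reduces steroids and prostaglandins, and AKR1C2 is a related steroid reductase. ABHD4 is a lipid hydrolase, and GSTA4 conjugates lipid peroxidation products. GSTA4 read 577, 714 and 913, and 3 further probe sets gave 0.62 to 0.80 for siRNA 2. AKR1C2 and AKR1C3 are dim (45.2 and 66.4 in the control), and probes for one may bind the other. By brightest probe set the lowest with siRNA 2 was MGST1, a microsomal glutathione transferase, at -0.46, and its siRNA 1 value was -0.43. Dimmer probe sets of ABCC4, SLC3A2 and GSR, singled out after their values were seen, reached -1.17, -0.69 and -0.60 with siRNA 2. The brightest probe sets of these genes differed by -0.23, -0.15 and -0.004.

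With siRNA 1, by brightest probe set, 1 of the 23 was 1.5-fold or more higher and 3 were lower, and the median was -0.08. Of all genes 6.93% were higher and 6.15% lower. ME1 and GSTM3, singled out for their other probe sets, differed by 0.25 and 0.07 with siRNA 1. The other probe set of ME1 gave 1.00, and the 2 others of GSTM3 gave 0.61 and 0.81. The carbonyl reductase CBR3 read 105, 41.6 and 77.5, or 2.53-fold lower with siRNA 1, and the quinone reductase NQO2 read 530.0, 254 and 402, or 2.09-fold lower. Of all genes 1.76% were 2-fold or more lower in that comparison. PGD, singled out after its values were seen, makes NADPH in the pentose phosphate pathway and differed by -0.74 and -0.29. Both CBR3 and NQO2 lay between the other arrays with siRNA 2 (-0.44 and -0.40).

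**Figure D3:**
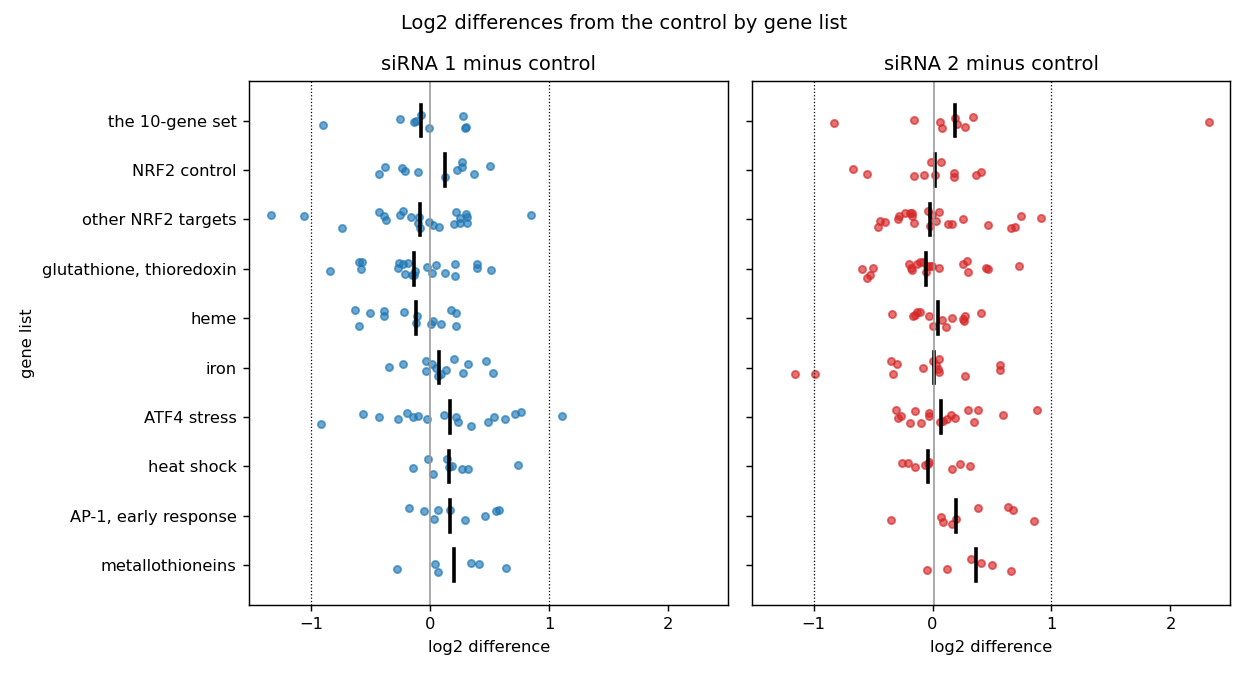
Log2 difference from the control for every measured gene of 10 lists, with siRNA 1 on the left and siRNA 2 on the right; each point is 1 gene by its brightest probe set, black bars are list medians, the grey line is the median of all genes and dotted lines mark 2-fold. HMOX1 is the single point above 2 on the right, and the list medians lie between -0.14 and 0.37.

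The wider glutathione and thioredoxin genes, 21 measured of 26, had medians of -0.14 and -0.05. With siRNA 2, 1 was 1.5-fold or more higher, the methionine sulfoxide reductase MSRA (0.73, from a dim 50.8). On the lower side there was 1, the peroxidase GPX8 (-0.59, though -0.05 on its other probe set). Of all genes 4.75% were higher and 4.67% lower in that comparison. The peroxidases GPX1 (0.51 and 0.47) and CAT (0.40 and 0.45), singled out after their values were seen, were a little higher with both siRNAs. PRDX3, the mitochondrial peroxiredoxin, also singled out, read 2592, 1444 and 2583, lower with siRNA 1 (-0.84) and level with siRNA 2 (-0.005). Its other probe set was lower with both siRNAs, at -1.24 and -0.32.

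Heme is the substrate of heme oxygenase, and 14 of 16 listed heme genes were measured. By their brightest probe sets, 0 were past 1.5-fold in either direction with siRNA 2, and the median was 0.04. Of all genes 4.75% were higher and 4.67% lower in that comparison. On the same basis BLVRB, a biliverdin reductase that acts after heme oxygenase, was the highest at 0.41, reading 1339, 1148 and 1774. The heme exporter FLVCR1 was the lowest at -0.34, but its 2 other probe sets differed by 0.03 to 0.10. UROD and SLC48A1, singled out for their other probe sets, differed by -0.13 and 0.27 with siRNA 2. The 4 other probe sets of UROD ranged from -0.65 to -0.57, and the 3 of SLC48A1 from -0.39 to 0.65. HMOX2, the constitutive heme oxygenase, singled out as the paralogue, read 390, 298 and 352, or -0.39 and -0.15, and its other probe set gave -0.19 and 0.19, so neither showed the HMOX1 difference. By brightest probe set with siRNA 1, 0 of the 14 were 1.5-fold or more higher and 2 lower. Of all genes 6.93% were higher and 6.15% lower. In siRNA 2 minus siRNA 1, 4 of the 14 were higher and 0 lower, against 4.02% and 7.07% of all probe sets. The 4, singled out after their values were seen, were SLC48A1 (0.86), PPOX (0.78), ALAD (0.75) and BLVRB (0.63). The 2 lower with siRNA 1 were ALAD (-0.63) and SLC48A1 (-0.60).

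Most iron genes were near the control. Of 14 measured, by brightest probe set, 0 were 1.5-fold or more higher and 2 lower with siRNA 2, with a median of 0.02. Of all genes 4.75% were higher and 4.67% lower in that comparison. The zinc and iron importer SLC39A14 read 529, 562 and 238, or 2.22-fold lower with siRNA 2, where 0.602% of all genes were 2-fold or more lower. The endosomal ferrireductase STEAP3, singled out after its values were seen, read 185, 181 and 93.2, a log2 difference of -0.99, just inside 2-fold. Both had the siRNA 2 array apart from the other arrays, as HMOX1 did, but in the opposite direction, and each had 1 measured probe set. ACO1, the iron regulatory protein 1, was the highest with siRNA 2 (0.57, and 0.54 on its other probe set). TFRC, the transferrin receptor, singled out as the target of that protein, read 2483, 3004 and 1947, and 2 further probe sets ranged from -0.44 to -0.13 for siRNA 2.

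Other stress programmes that can raise HMOX1 were listed too. Each gene was counted and ranked by its brightest probe set. The shares of all genes at 1.5-fold, for each of these lists, were 4.75% higher and 4.67% lower with siRNA 2 and 6.93% and 6.15% with siRNA 1. Of 18 genes of the ATF4 stress response, all measured, 2 were 1.5-fold or more higher and 0 lower with siRNA 2 (median 0.07), and 4 were higher and 1 lower with siRNA 1 (median 0.17). The ATF3 gene, a stress-induced transcription factor, read 279, 599.6 and 421, 2.15-fold higher with siRNA 1, where 1.36% of all genes were 2-fold or more higher, although its 2 other probe sets differed by 0.16 to 0.48. SESN2, a sestrin that restrains mTORC1 and also answers to NRF2 and p53, was the highest with siRNA 2 at 0.88 (0.75 on its other probe set). CEBPB was the lowest at -0.31. HSPA5, singled out for its other probe sets, differed by 0.12 with siRNA 2, while its 5 others ranged from -0.67 to -0.09. Among 9 heat shock genes 0 were past 1.5-fold with siRNA 2 (median -0.04). CRYAB was the highest (0.32) and HSP90AA1 the lowest (-0.26) in that comparison. With siRNA 1, 1 was 1.5-fold or more higher, CRYAB (0.74, from a dim 38.8), and 0 were lower (median 0.16). HSPA8, singled out for its other probe sets, differed by -0.06 with siRNA 2, while its 3 others ranged from -0.73 to -0.41. Of 9 AP-1 and early response genes 3 were higher with siRNA 2, JUN (0.85, and 0.65 to 1.05 on 3 other probe sets), EGR1 (0.68) and IER2 (0.63), the last 2 singled out after their values were seen, and the lowest was IER3 (-0.35). With siRNA 1 JUN differed by 0.55 (0.73 to 0.79 on its other probe sets), EGR1 by 0.30 and IER2 by 0.46. The medians of this list were 0.16 and 0.19, and 0 of the 9 were past 1.5-fold with siRNA 1. Of 6 metallothioneins, 1 was higher with siRNA 2, MT1F (0.66, but 0.28 on its other probe set), the lowest being MT3 (-0.05). With siRNA 1, 1 was 1.5-fold or more higher, MT1G (0.64), singled out after its values were seen, and 0 were lower. The metallothionein medians were 0.20 with siRNA 1 and 0.37 with siRNA 2, and 4 of the 6 were above the control with both.

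The 5 genes whose pair of differences lay nearest that of HMOX1 were RLN1, TUBB3, PLA2G2A, SMIM5 and APOBEC3H. Likeness was the Euclidean distance between the log2 differences of siRNA 1 and siRNA 2 from the control, so it rests on 3 arrays and 1 control. RLN1, a relaxin made in the prostate, read 46.7, 54.0 and 207 (distance 0.28). TUBB3, a beta tubulin of neurons, read 304, 242 and 1733 (distance 0.37). PLA2G2A, a secreted phospholipase A2, read 117, 191 and 479.5 (distance 0.77), and 2 further probe sets gave 1.51 and 2.13 for siRNA 2. SMIM5, a small membrane protein gene, read 25.6, 34.9 and 80.2; its control is below the floor, so it was at least 3.09-fold higher, while another probe set was at least 1.65-fold higher and the last was below the floor on every array. APOBEC3H, a cytidine deaminase that restricts retroviruses, read 28.4, 53.8 and 144, and its 2 other probe sets differed by 0.76 and 1.07 with siRNA 2. By the probe sets with printed intensities, PLA2G2A, SMIM5 and APOBEC3H were also above the control with siRNA 1 by 0.43 to 0.92, unlike HMOX1. Their other probe sets did not all show this. With siRNA 1 those of APOBEC3H differed by 0.13 and 0.10, and those of PLA2G2A by 0.31 and 0.83. The other measured SMIM5 probe set was below the floor on the control and siRNA 1 arrays. In all, 32 of the 11296 genes (0.283%) were 2-fold or more higher with siRNA 2 while within 1.5-fold of the control with siRNA 1, HMOX1 among them, and 72 (0.637%) showed the mirror pattern with siRNA 1.

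**Figure D4:**
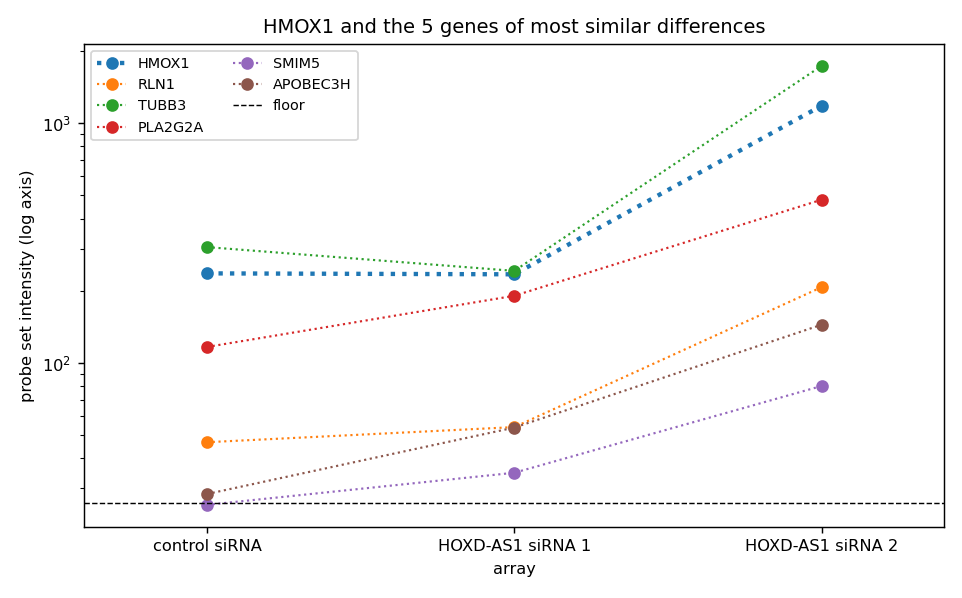
Intensity (vertical log axis) of HMOX1 and of the 5 genes nearest to it on the control, siRNA 1 and siRNA 2 arrays, each by its brightest probe set; dotted lines only join the points of a gene and the dashed line is the floor. HMOX1 (236, 234 and 1182) and TUBB3 (304, 242 and 1733) are level or lower with siRNA 1 and higher with siRNA 2.

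The identity of the cells was read from markers. All 8 luminal prostate genes with a probe set were measured, with 5 above the control in both siRNA libraries and 2 below it, and medians of 0.33 and 0.12. KLK3, singled out as the best known of them, read 2602, 2329 and 1931 and was 1 of the 2 lower ones. Of 9 leukocyte and macrophage genes with a probe set 3 were measured, with summed intensities of 129, 121 and 155, and PTPRC, CD14, ITGAM, CD163, LYZ and CD3E were at or below the floor on every array. Of 10 stromal genes 4 were measured, with sums of 754, 741 and 969; COL1A2, DCN, LUM, PDGFRB, THY1 and FAP were at or below the floor, and ACTA2 read 41.7, 92.9 and 149.99. Markers of androgen receptor-negative prostate lines were at or below the floor in 5 of 6, among them CD44, CAV1 and AXL. The leukocyte and stromal sums were highest with siRNA 2, with 1 gene giving the largest part of each. These were CD68 (66.2, 69.8 and 88.7) and VIM (660, 593 and 735). The largest part of a sum need not be the largest part of its excess. Of the 4 stromal genes 2 were 1.5-fold or more higher with siRNA 2 and 0 lower, against 4.75% and 4.67% of all genes. By fold ACTA2 differed most of the 4, being 2.23-fold higher with siRNA 1 and 3.59-fold higher with siRNA 2. CSF1R (38.0, 25.7 and 36.5) and COL1A1 (34.0, 26.6 and 33.6) were slightly below the control with siRNA 2. TYROBP (25.1, 25.2 and 29.8) and COL3A1 (17.9, 28.4 and 50.4) were above it, from control values below the floor. The part of these sums in the HMOX1 value was not tested.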

How the data were processed

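The authors deposited 1 table of linear probe set intensities with a column for each array. The software was GCOS 1.4, per the submitters' processing notes; background correction, summarisation and normalization are not given in the sources used here. After sorting, log2 values differed between arrays by no more than 0.098, so nothing was rescaled, and a shift of most transcripts one way could not be seen. Median intensities were 25.7 to 26.1. Values under the median of all values were raised to it before log2 was taken. Symbols came from the platform annotation: 44988 probe sets had 1 symbol, 1831 several and 2569 none; all 28 used for HMOX1 and the NRF2 targets matched RefSeq by Entrez identifier. Genes were represented by their measured probe set of highest mean log2 intensity. Named genes were every probe set of the 10 genes, every measured NRF2 control gene, list genes past 2-fold in either siRNA library or highest or lowest with siRNA 2, and the 5 nearest to HMOX1; genes singled out outside this rule are marked as such, and marker genes came from the lists. The genes and lists were chosen with earlier results of these data known. Counting was tested on simulated data. Alternatives changed the floor, normalization, probe set choice and threshold. Python 3.11.15 with pandas 2.3.3 and numpy 2.4.6 was used.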

Additional observations from a re-analysis of the deposited data

How the results depend on the processing

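The siRNA 2 difference of HMOX1 was 2.32 to 2.34 and its siRNA 1 difference -0.03 to -0.01 under a floor at the 25th or 75th percentile, no floor, quantile normalization and median centring. The siRNA 2 median of the 9 genes was 0.11 to 0.21 and the siRNA 1 median -0.11 to -0.04 over all alternatives, the last including plain _at probe sets, which left 2 genes; leaving out HMOX1 was added after the data were seen. The count of probe sets 1.5-fold or more higher with siRNA 2 was 3 under each alternative run on it. With the floor at the 75th percentile 1 probe set of the group was 1.5-fold or more lower with siRNA 1, and all probe sets past 2-fold numbered 104 higher and 159 lower with siRNA 1 and 81 higher and 56 lower with siRNA 2, since fewer were measured. At 2-fold in place of 1.5-fold, 0 were lower with siRNA 1 and 0 with siRNA 2. The median of the other NRF2 targets with siRNA 1 was 0.30 with plain _at probe sets, which left 5 genes. No paired analysis was possible because each group held 1 array. For the same reason no array could be left out. Signals near the floor, as for OSGIN1, limit what can be seen.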
